A study of Mus musculus with 4 samples.

Results

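Cluster 0 is the largest cluster of the authors' cell table over all 4 libraries together. It consists of B cells with a naive-like transcript profile. Its members were taken by the authors' cluster number, matched by library and barcode to the count matrices, and numbered 9664 of 22569 table cells, out of 31885 barcodes in all. They came from 4 droplet libraries of sorted CD45+ leukocytes. The tissue was Peyer's patches, where lymphoid follicles lie along the small intestine. The SFB-positive libraries (1481 and 2273 member cells in replicates 1 and 2) came from female wild-type Taconic mice carrying segmented filamentous bacteria, gut commensals that attach to the epithelium of the ileum. The SFB-negative libraries (2158 and 3752 member cells) came from female wild-type Taconic mice without them. No source used here gives their ages, no other agent or allele is named, and tissue of 5 mice was pooled for each group, so that a library does not stand for a single animal. Cluster 0 made up 43.5% and 30.8% of table cells in SFB-positive and 53.3% and 48.5% in SFB-negative libraries. In SFB-positive replicate 2 cluster 1 was larger, with 36.6% of table cells. The difference in these shares was not tested.

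A naive B cell carries IgM and IgD on its surface, has not yet met its antigen, and circulates between blood and lymphoid follicles. CCR7 and CXCR5 guide it within the organ, and CD23 (Fcer2a), CD21 (Cr2) and IgD mark its follicular form. In Peyer's patches such cells surround germinal centres that are kept active by the gut flora, and IgD is lost once a cell switches class or turns into a plasma cell.

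The libraries differed in depth and make-up before any group was compared. Cluster 0 cells had a median of 1212 and 5249 UMIs in SFB-positive replicates 1 and 2, and of 1209 and 2962 UMIs in SFB-negative replicates 1 and 2. Replicate 1 and replicate 2 libraries also carry different Cell Ranger versions and antibody tags were counted in replicate 1 alone, so the replicate number marks a technical batch that holds 1 library of each group. Cell Ranger versions can differ in whether reads within introns are counted, the setting used here is not stated, and its part in levels that differ between replicate numbers was not tested. SFB-negative replicate 2 stood apart. Of its cluster 0 UMIs, 6.68% came from gene models without a name, against 1.18% and 2.04% in the SFB-positive libraries and 1.17% in SFB-negative replicate 1. Histone transcripts took 0.265% of them there, against 0.0441% and 0.0819% in the SFB-positive libraries and 0.0377% in SFB-negative replicate 1. Between libraries of the same replicate number, 30 and 40 barcodes of all barcodes were shared, and of cluster 0 barcodes 2 and 3.

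The 5 genes given as markers of these cells were all present in each library. Values across clusters are CPM, UMIs of a gene scaled to a common total of UMIs for each cluster and library, with no further normalisation. Ccr7 stood at 1319 and 648 CPM in cluster 0 of the SFB-positive libraries and at 1619 and 443 CPM in the SFB-negative libraries. In cluster 3, the germinal-centre-like class, Ccr7 had 87.6 and 47.5 CPM in SFB-positive and 119 and 63.9 CPM in SFB-negative libraries. Every library thus held more Ccr7 in cluster 0 than any library held in cluster 3. Ighd, the IgD heavy chain, had 946 and 559 CPM in SFB-positive and 937 and 399.7 CPM in SFB-negative libraries, against 98.2, 36.7, 54.3 and 45.01 CPM in cluster 3 of the same libraries. Cd55, which shields cells from complement, ranged from 219 to 305 CPM in cluster 0 and from 21.1 to 29.1 CPM in cluster 3. Plaur, the urokinase receptor, ranged from 239 to 573 CPM and from 14.7 to 46.5 CPM. Fcer2a, the low-affinity IgE receptor CD23, had 290.2 and 182 CPM in SFB-positive and 431 and 222 CPM in SFB-negative libraries. It was the least exclusive of the 5, since SFB-negative replicate 1 held 208 CPM of it in cluster 3, more than SFB-positive replicate 2 held in cluster 0. These levels were among the measures the clusters were built on, so they describe cluster 0 and are no test of it.

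**Figure D1:**
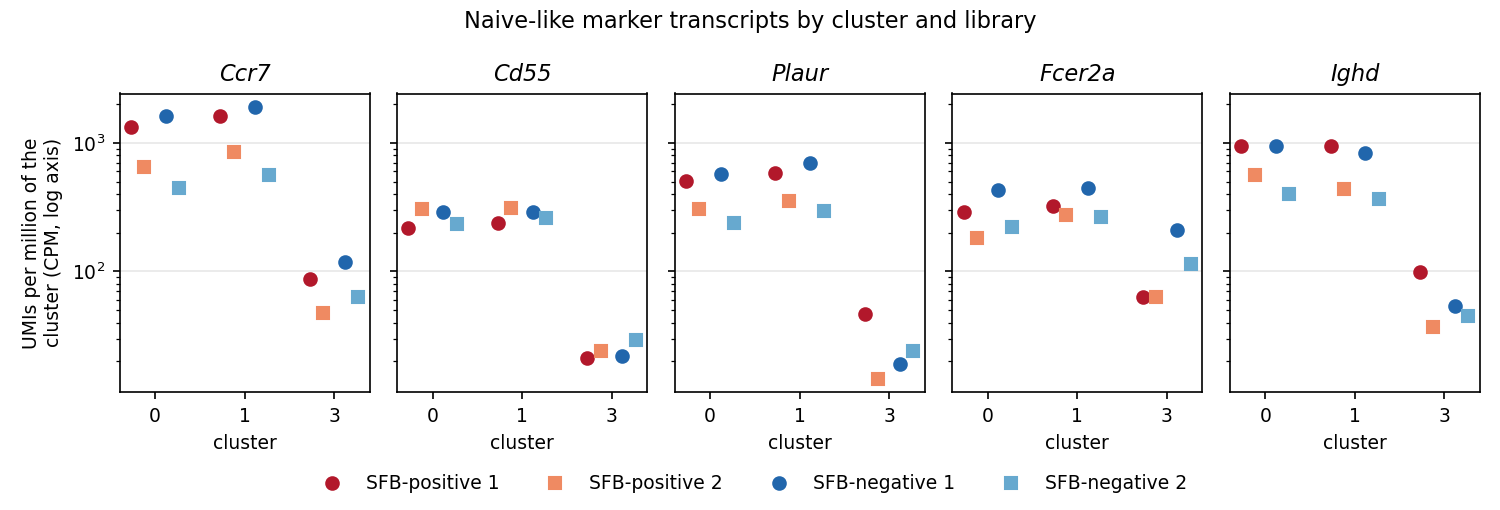
CPM of the 5 marker transcripts (log axis) in clusters 0, 1 and 3, with 1 point for each library. Clusters 0 and 1 lie at like levels, and cluster 3 lies lower for Ccr7, Cd55, Plaur and Ighd, where for example Ighd is at 36.7 to 98.2 CPM against 399.7 to 946 CPM in cluster 0.

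Cluster 1, the other naive-like cluster, did not differ from cluster 0 in these markers in 1 direction. It held more Ccr7 than cluster 0 in each library, with 1605 and 849 CPM in SFB-positive and 1894 and 562 CPM in SFB-negative libraries, while Ighd lay lower in cluster 1 in each library. Ccr7 is also a marker of naive T cells, and T cells of the same libraries outside the table (328 and 1336 cells in SFB-positive, 312 and 1134 in SFB-negative libraries, chosen by at least 3 UMIs of Cd3d, Cd3e, Cd3g, Trac, Trbc1 and Trbc2, more of these than of 4 B-cell genes, and under 10% mitochondrial UMIs) held 984 and 698 CPM in SFB-positive and 1630.2 and 508 CPM in SFB-negative libraries. Ighd separated cluster 0 from T cells: it was seen in 67.9% and 90.8% of cluster 0 cells of SFB-positive and 65.9% and 65.8% of SFB-negative libraries, against 4.57% and 8.91% of T cells in SFB-positive and 6.41% and 9.08% in SFB-negative libraries. With each cell thinned to 1000 UMIs the cluster 0 shares became 58.4% and 42.1% in SFB-positive and 57.3% and 33.1% in SFB-negative libraries, so the height of the unthinned share in SFB-positive replicate 2 goes with its depth.

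Markers of cell types other than B cells were low in cluster 0. The 8 T-cell markers summed to 19.9 and 7.38 CPM in SFB-positive and 16.1 and 20.8 CPM in SFB-negative libraries. The 8 myeloid markers summed to 13.1 to 18.2 CPM, with S100a8 and S100a9 at 0 in each library, and the 4 red-cell markers to 1.94 to 4.90 CPM. The 4 NK markers summed to 2.78 to 6.32 CPM with Ncr1 at 0, and the 4 markers of innate lymphoid cells to 1.36 to 8.40 CPM with Il1rl1 at 0. Germinal-centre markers (7 genes) summed to 26.7 and 120 CPM in SFB-positive and 34.0 and 80.1 CPM in SFB-negative libraries, mostly from Bcl6, against 1450 to 2093 CPM in cluster 3. Of the plasma-cell markers, Tnfrsf17, the receptor BCMA, was at 0 in each library, and Prdm1, the Blimp-1 repressor, at 0.972 to 3.60 CPM, while Mzb1, a chaperone that marginal-zone cells and plasma cells share, reached 244 to 437 CPM. The 7 plasma-cell markers summed to 707 and 417 CPM in SFB-positive and 647 and 419 CPM in SFB-negative libraries. Sdc1 (8.35 to 32.6 CPM) and Irf4 (65.7 to 88.6 CPM) lay above cluster 3 in each library, and Jchain and Mzb1 below it. The 7 memory or atypical markers, mostly Zbtb20 and Ccr6, summed to 195 and 822 CPM in SFB-positive and 158 and 455 CPM in SFB-negative libraries. The sum lay below cluster 3 in each library, as did Zbtb20, Nt5e and Cd80. Ccr6 lay above cluster 3 in each library (50.4 to 208 CPM, against 13.2 to 44.0 CPM). Pdcd1lg2 did so too (34.0 to 48.0 CPM, against 8.45 to 22.5 CPM). The 5 epithelial markers summed to 7.29 and 6.48 CPM in SFB-positive and 21.0 and 17.0 CPM in SFB-negative libraries, mostly Epcam. The groups also did not overlap in the sums of the red-cell markers, lower in SFB-positive libraries, and of the 5 marginal-zone markers (120 and 100.2 CPM in SFB-positive, 89.3 and 76.3 CPM in SFB-negative libraries).

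Surface protein was counted by 15 antibody tags in the replicate 1 libraries. CD38, which follicular B cells carry and mouse germinal-centre cells lose, had a median of 13 counts per cell in cluster 0 of SFB-positive replicate 1 and 20 in SFB-negative replicate 1, and of 4 and 6 counts in cluster 3 of those libraries. IgD protein was likewise higher in cluster 0 than in cluster 3, with medians of 5 and 8 counts in cluster 0 and 2 and 3 counts in cluster 3. CD24, which germinal-centre cells carry more of, ran the other way, with 2 and 4 counts in cluster 0 and 4 and 10 in cluster 3. Tags of IgM, IgA, IgG1, CD138 and the rat isotype controls had a median of 0 in cluster 0. High IgD and CD38 tags were not particular to cluster 0. Median IgD was 6 and 9 counts in cluster 1 of SFB-positive and SFB-negative replicate 1. Median CD38 was 13 and 21 counts in cluster 2 and 18 and 29 counts in cluster 4, in the same order. The tags of CD38, IgD and CD24 were lower in the SFB-positive library in each of clusters 0, 1 and 3, and with 1 library for each group no test of that difference can be made.

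**Figure D2:**
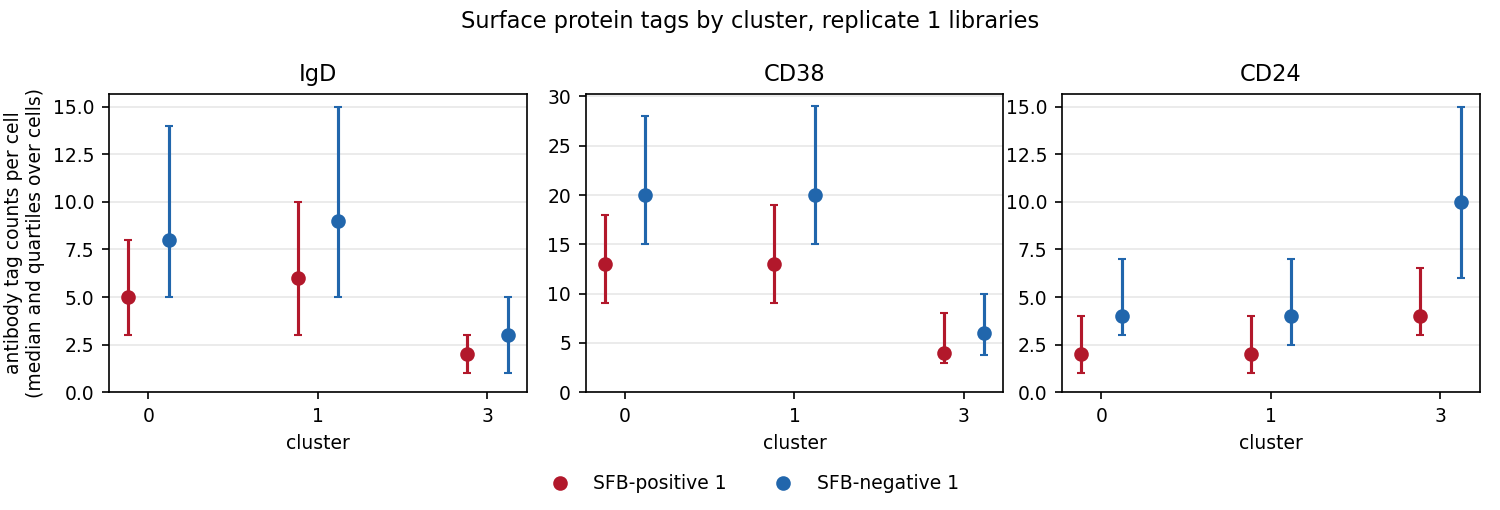
Antibody tag counts per cell in clusters 0, 1 and 3 of the replicate 1 libraries, with points at the median and bars from the lower to the upper quartile over cells. Clusters 0 and 1 have the same medians of CD38 (13 and 20), and cluster 3 has 4 and 6.

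The genes that led cluster 0 over all other table cells were not strongly particular to it. Among 1840 genes of at least 50 CPM in each library's cluster 0, the highest ranked by its lowest ratio over the 4 libraries was Slfn2, a Schlafen family gene linked to lymphocyte quiescence, at 2.02 to 2.62 times the level of the other table cells. Cd55 stood at 1.68 to 1.96, the interleukin-10 receptor chain Il10ra at 1.63 to 2.03, Ighd at 1.58 to 2.18 and the B-cell Fc receptor-like gene Fcrla at 1.58 to 1.72. The 20th gene by that order, Ifngr2, a chain of the interferon-gamma receptor, had 1.45 to 1.79 times. The lowest ratios were far from 1. Igha stood at 0.0146 to 0.0242 of its level elsewhere, Jchain, the chain that joins IgA and IgM multimers, at 0.0113 to 0.0243, and Top2a of dividing cells at 0.0502 to 0.0781.

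Against cluster 1 alone the leading genes were chaperones and immediate-early factors. Hspa1a and Hspa1b, the 2 near-identical genes of inducible HSP70, had 0.0229 to 0.0724 and 0.0215 to 0.0857 of their cluster 1 levels. Jun, an AP-1 subunit, had 0.0677 to 0.196, the HSP40 co-chaperone Dnajb1 0.0875 to 0.2005, and Hsph1, an HSP110 chaperone, 0.106 to 0.241. In the other direction the ratios were small: Apoe, apolipoprotein E, stood at up to 1.74 times its cluster 1 level and Ndufa4, a subunit of the respiratory chain, at 1.33 to 1.77 times. The border between the clusters thus runs along heat-shock and AP-1 transcripts, so that differences between groups in these genes inside cluster 0 are given further on with and without that border.

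Heavy-chain transcripts in cluster 0 were those of unswitched cells. Ighm took 75.4% and 66.8% of the UMIs of 8 heavy-chain constant genes in SFB-positive and 77.3% and 62.1% in SFB-negative libraries. Ighd took 21.2% and 30.5% in SFB-positive and 21.1% and 35.7% in SFB-negative libraries. The groups overlapped in both genes (exact two-sided permutation test over libraries, p = 1 each, where 2 against 2 libraries allow no p below 0.333). The balance of IgM to IgD followed the replicate number, with more Ighd in both replicate 2 libraries. Ighm or Ighd was the most abundant constant transcript of nearly all cells with a single leading one: 1201 and 129 cells of SFB-positive replicate 1, 1720 and 340 of SFB-positive replicate 2, 1750 and 179 of SFB-negative replicate 1, and 2047 and 840 of SFB-negative replicate 2. An Ighm UMI was also found in 40.2% and 55.7% of T cells in SFB-positive and 47.4% and 35.4% in SFB-negative libraries. The shares of cluster 0 cells were 95.6% and 97.8%, and 95.3% and 82.0%, and the part of free RNA was not tested. Lambda light chains led in 3.79% and 6.60% of cells with a light-chain constant UMI in SFB-positive and in 4.603% and 10.7% in SFB-negative libraries.

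The switched isotype Ighg2b, the IgG2b heavy chain, took 1.31% and 1.32% of heavy-chain constant UMIs in SFB-positive and 0.0789% and 0.190% in SFB-negative libraries. The groups did not overlap, and the difference of 1.18 percentage points (1.23 and 1.13 within replicate numbers 1 and 2) gave p = 0.333 in the exact test, the smallest it can give. Its level passed the count test, with 61.7 and 20.6 CPM in SFB-positive and 3.66 and 2.27 CPM in SFB-negative libraries (scaled by TMM factors, log2 difference 3.51 ± 0.30 (SE), edgeR adjusted p = 9.35e-28). The same transcript was seen as often in T cells, which make no antibody. Cells with an Ighg2b UMI made up 7.43% and 11.6% of cluster 0 and 7.93% and 12.6% of T cells in SFB-positive libraries, and 0.371% and 0.453% of cluster 0 and 0% and 0.353% of T cells in SFB-negative libraries. Median depth was 1212 and 5249 UMIs in cluster 0 and 1456 and 6722 UMIs in T cells of SFB-positive libraries, and 1209 and 2962 UMIs against 1588 and 3722 UMIs in SFB-negative libraries. The 0 of 312 T cells in SFB-negative replicate 1 allows a share of up to 0.962%. Shares of cells with Ighg2b were thus alike in cluster 0 and in T cells of the same libraries. Ighg2b is not read here as expression by cluster 0 cells, and the part of free RNA was not tested. Cluster 6, led by plasma-cell transcripts, held Ighg2b at 47543 and 57281 CPM in SFB-positive and 0 and 3826 CPM in SFB-negative libraries. That cluster had only 24 and 68 cells in SFB-positive and 6 and 30 cells in SFB-negative libraries.

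The other secreted isotypes gave the same picture. An Igha UMI was found in 11.0% and 11.0% of cluster 0 cells of SFB-positive and 7.74% and 2.29% of SFB-negative libraries, against 9.45% and 11.5% of T cells in SFB-positive and 8.01% and 2.12% in SFB-negative libraries. Jchain was found in 6.28% and 7.26% of cluster 0 cells of SFB-positive and 1.81% and 3.60% of SFB-negative libraries, against 5.79%, 7.04%, 1.92% and 3.70% of T cells in the same order. Igha did not pass the test (log2 0.62 ± 0.24, edgeR adjusted p = 0.249). Ighg1, the IgG1 heavy chain, was lower (log2 -2.23 ± 0.39, edgeR adjusted p = 7.70e-06), which rested on SFB-negative replicate 2: it had 6.17 and 1.35 CPM in SFB-positive and 5.50 and 12.8 CPM in SFB-negative libraries, with log2 differences of 0.16 and -3.02 within replicate numbers 1 and 2. In that library an Ighg1 UMI was found in 3.52% of cluster 0 cells and 3.97% of T cells. Of Ighg3 (3 and 36 UMIs in SFB-positive, 3 and 4 in SFB-negative libraries), Ighg2c (0 and 1, against 0 and 0) and Ighe (0 and 0, against 1 and 0) there were too few UMIs to compare.

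**Figure D3:**
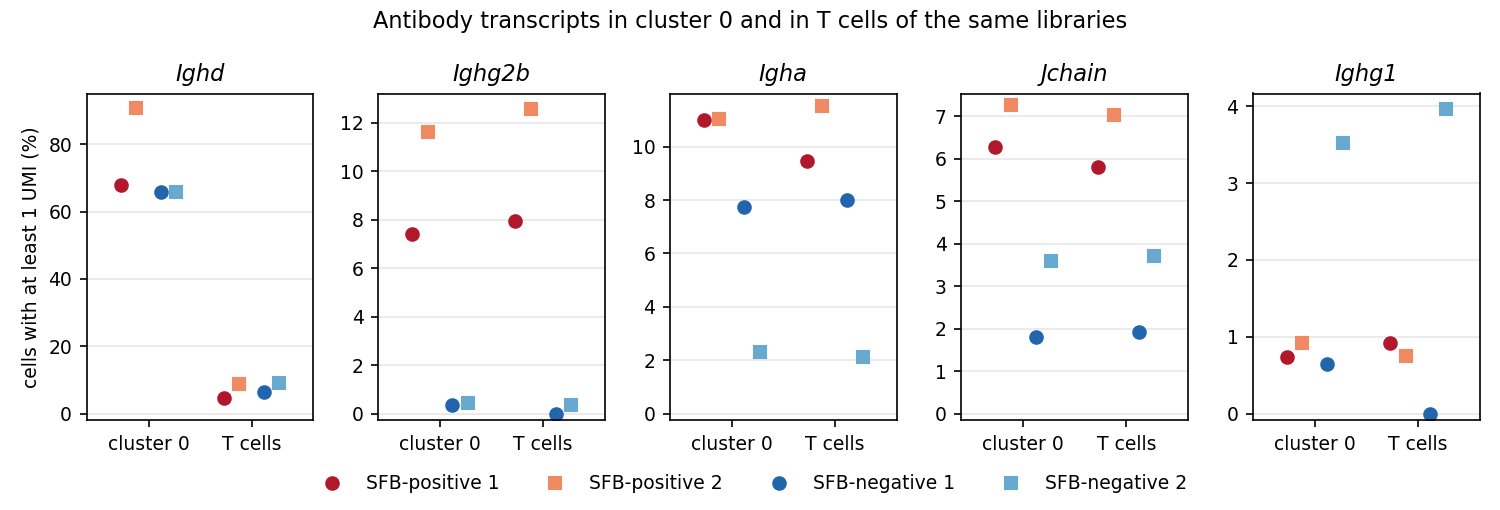
Share of cells with at least 1 UMI (%, linear axes of different height) in cluster 0 and in T cells outside the table, with 1 point for each library. Ighd separates the cell types (65.8% to 90.8% against 4.57% to 9.08%), whereas Ighg2b, Igha, Jchain and Ighg1 lie at like shares in cluster 0 and T cells of each library.

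Gene levels in cluster 0 were then compared between the groups, to see what SFB carriage went with in B cells that had not switched class. UMIs were summed over the member cells of each library, scaled by TMM factors, and tested with the edgeR quasi-likelihood test with the replicate number as a block (Benjamini-Hochberg adjustment over 10612 genes, limit 0.05). A log2 difference above 0 means a higher level in SFB-positive libraries, ± gives its standard error, and n = 2 libraries for each group throughout. The call was made for 229 genes (2.16% of all tested), of which 25 were higher (0.236%) and 204 lower (1.92%) in SFB-positive libraries. These shares are the background for each count of list members given below. Of the 204 lower genes, 120 reached a mean of 10 CPM in the SFB-negative libraries, and 104 of those 120 had their highest value in SFB-negative replicate 2, the library that stood apart. Without it, in a fit that cannot hold the block, 0 genes were higher and 1 was lower (287 genes at an unadjusted p under 0.05). Of the 25 higher genes, 21 reached 10 CPM in the SFB-positive libraries, and the groups did not overlap in 7 of the 21, while 459 of all 10612 genes (4.33%) were higher without overlap. Among the 120 lower genes the groups did not overlap in 51, against 711 of all genes tested (6.7%). In bulk sums like these, fewer expressing cells and less RNA per cell cannot be told apart.

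Socs3, a feedback inhibitor of cytokine receptors that signal through JAK kinases and STAT3, had 150 and 36.2 CPM in SFB-positive and 63.8 and 17.7 CPM in SFB-negative libraries. Within each replicate number the SFB-positive library was about as much higher (log2 1.23 and 1.02), but the groups overlapped because both replicate 2 libraries were low. Its log2 difference was 1.13 ± 0.25 (edgeR adjusted p = 0.00111). Cells with a Socs3 UMI made up 16.0% and 17.6% of cluster 0 in SFB-positive and 6.90% and 4.77% in SFB-negative libraries, and with cells thinned to 1000 UMIs 12.6% and 3.74%, against 5.12% and 1.79%. The thinned shares were thus higher in SFB-positive than in SFB-negative libraries of the same replicate number. T cells outside the table, which are known to express Socs3, held a UMI in 28.0% and 41.1% of cells in SFB-positive and 25.6% and 17.2% in SFB-negative libraries, and the part of free RNA in the cluster 0 shares was not tested. Sbno2, a transcription co-regulator that macrophages induce in response to interleukin-10, had 155 and 74.7 CPM in SFB-positive and 71.8 and 38.5 CPM in SFB-negative libraries (log2 1.03 ± 0.25, edgeR adjusted p = 0.00479), and its call was lost with cells thinned to 1000 UMIs (adjusted p = 0.0827). T cells held Sbno2 at 70.7 and 69.3 CPM in SFB-positive and 31.5 and 27.8 CPM in SFB-negative libraries, with a UMI in 35.2% of both cluster 0 and T cells of SFB-positive replicate 2 and in 10.9% and 10.4% of those of SFB-negative replicate 2, so the difference was not limited to cluster 0. Plscr1, an interferon-induced phospholipid scramblase, had 26.2 and 13.5 CPM in SFB-positive and 11.4 and 6.55 CPM in SFB-negative libraries (log2 1.11 ± 0.28, edgeR adjusted p = 0.00593), and in both SFB-positive libraries it lay above both SFB-negative ones. Socs3 was the only member of its list of 17 tested cytokine receptor and Socs genes past the limit, and the median of that list was -0.04 on the log2 scale, against -0.01 over all genes.

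Promoters of 8 of the 25 higher genes were searched on both strands for the STAT letters TTCNNNGAA and the heat-shock letters GAANNTTC. The first occurred in Socs3, Sbno2 and Plscr1, the second in Plscr1, Hspa1a, Hspa1b and Hsph1, and neither in Slc15a2 and Cfp. Windows of Socs3, Sbno2, Plscr1 and Hspa1a are printed to show where the letters lie. The windows run from 250 bases before to 50 after the start of the gene, from RefSeq on GRCm38.p6, on the strand of the gene, and capitals mark either motif. Of 27025 mouse promoters of that length, 8.47% hold TTCNNNGAA and 7.95% hold GAANNTTC. How the 8 genes compare with these shares was not tested. Windows of some other genes, Ccnd2 among them, were not available, and those of Hspa1a and Hspa1b are nearly the same. Hsph1 has 2 listed starts, of which 1 was used. Socs3 lies at chr11:117969317-117969616 on the minus strand, Sbno2 (the first of 3 listed starts) at chr10:80102653-80102952 on the minus strand and Plscr1 at chr9:92249944-92250243 on the plus strand. Hspa1a lies at chr17:34972107-34972406 on the minus strand and belongs with the heat-shock genes described next. In Plscr1 the 2 motifs overlap. A match is a run of letters and no proof of a bound site.
Socs3: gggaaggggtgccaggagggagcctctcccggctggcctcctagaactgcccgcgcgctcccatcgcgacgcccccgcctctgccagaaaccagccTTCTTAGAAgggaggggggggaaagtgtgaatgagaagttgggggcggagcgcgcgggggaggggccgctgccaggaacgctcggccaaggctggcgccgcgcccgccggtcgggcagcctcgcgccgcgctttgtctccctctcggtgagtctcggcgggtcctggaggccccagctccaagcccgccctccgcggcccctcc
Sbno2: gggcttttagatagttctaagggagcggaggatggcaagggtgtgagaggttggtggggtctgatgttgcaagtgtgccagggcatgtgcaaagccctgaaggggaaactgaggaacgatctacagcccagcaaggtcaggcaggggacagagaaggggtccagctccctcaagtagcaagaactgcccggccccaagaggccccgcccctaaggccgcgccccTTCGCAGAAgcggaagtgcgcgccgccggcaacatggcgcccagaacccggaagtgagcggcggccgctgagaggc
Plscr1: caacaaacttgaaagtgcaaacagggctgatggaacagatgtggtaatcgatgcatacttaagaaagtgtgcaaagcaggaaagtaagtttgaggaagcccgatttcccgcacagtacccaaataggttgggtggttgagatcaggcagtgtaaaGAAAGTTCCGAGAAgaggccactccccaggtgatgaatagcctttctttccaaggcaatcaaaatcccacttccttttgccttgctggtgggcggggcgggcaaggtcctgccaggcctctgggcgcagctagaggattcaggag
Hspa1a: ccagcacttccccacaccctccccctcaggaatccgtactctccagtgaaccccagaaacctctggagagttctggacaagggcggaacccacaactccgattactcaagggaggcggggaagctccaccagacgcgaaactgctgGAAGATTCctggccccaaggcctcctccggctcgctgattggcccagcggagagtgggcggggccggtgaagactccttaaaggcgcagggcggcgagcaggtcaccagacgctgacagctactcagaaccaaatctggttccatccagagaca

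Heat-shock genes encode chaperones that refold proteins under stress. Of 12 tested genes of that list 3 were higher (25%), against 0.236% of all genes, and none was lower. All 12 log2 differences were above 0, and their median was 0.50 (0.50 and 0.51 within replicate numbers 1 and 2), against -0.01 over all genes. With cells thinned to 1000 UMIs the median was 0.24, with 10 of 11 tested genes above 0. Hspa1a had 214 and 40.9 CPM in SFB-positive and 79.1 and 14.1 CPM in SFB-negative libraries (log2 1.48 ± 0.26, edgeR adjusted p = 4.45e-06). Hspa1b had 7.20 and 17.7 CPM in SFB-positive and 3.30 and 5.15 CPM in SFB-negative libraries (log2 1.64 ± 0.33, edgeR adjusted p = 1.74e-04), and reads of this pair can be assigned to either copy. Hsph1 had 97.7 and 98.4 CPM in SFB-positive and 48.4 and 53.6 CPM in SFB-negative libraries, without overlap (log2 0.94 ± 0.25, edgeR adjusted p = 0.0158). Jun was the one of 15 tested AP-1 and immediate-early genes past the limit (6.67%, against 2.16% of all genes). It had 116 and 69.6 CPM in SFB-positive and 57.2 and 43.7 CPM in SFB-negative libraries (log2 0.83 ± 0.25, edgeR adjusted p = 0.0453). The median of that list was -0.11.

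These are the genes along which clusters 0 and 1 divide. In cluster 1 Hspa1a had 2801 and 2098 CPM in SFB-positive and 2664 and 530.1 CPM in SFB-negative libraries, 13.8 to 43.7 times the cluster 0 level of the same library. T cells outside the table, to which that border does not apply, had 1130 and 797 CPM in SFB-positive and 649 and 236 CPM in SFB-negative libraries. Cluster 2 also held more Hspa1a than cluster 0, at 1014 and 754 CPM in SFB-positive and 394 and 127 CPM in SFB-negative libraries. Summing clusters 0 and 1 removes the border between them, but not that with cluster 2. In that sum edgeR adjusted p was 0.184 for Hspa1a, 0.143 for Hspa1b, 0.132 for Hsph1 and 0.0321 for Jun. Their log2 differences were 1.32, 1.22, 0.89 and 1.24 in that order, and the median of the 12 heat-shock genes was 0.88. Socs3 and Sbno2 kept adjusted p-values below the limit in that sum, at 0.00843 and 0.0278. That alternative was chosen after the data had been examined. Cluster 1 made up 33.3% and 36.6% of table cells in SFB-positive and 26.9% and 23.9% in SFB-negative libraries, and the sum carries that share too. Between the groups, Hspa1a in cluster 1 lay close in replicate 1 (2801 and 2664 CPM) and far apart in replicate 2 (2098 and 530.1 CPM).

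**Figure D4:**
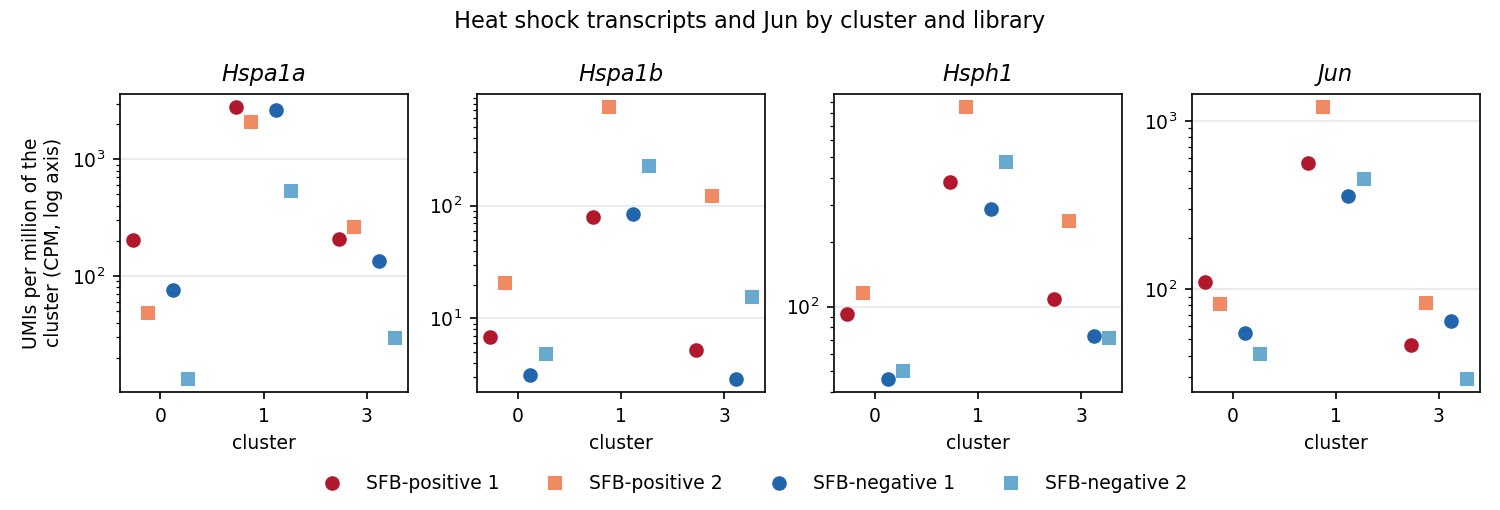
CPM (log axis, unscaled) of Hspa1a, Hspa1b, Hsph1 and Jun in clusters 0, 1 and 3, with 1 point for each library. Cluster 1 lies far above cluster 0 for each gene, for Hspa1a at 530.1 to 2801 CPM against 13.3 to 203 CPM.

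Transporters of peptides moved in opposite directions. Slc15a2, the plasma-membrane carrier PEPT2 that takes up di- and tripeptides, bacterial wall fragments among them, had 35.5 and 114 CPM in SFB-positive and 19.4 and 29.9 CPM in SFB-negative libraries. Both SFB-positive libraries lay above both SFB-negative ones (log2 1.53 ± 0.27, edgeR adjusted p = 5.45e-06). Slc15a3, the endolysosomal carrier PHT2 of the same family, had 11.8 and 11.1 CPM in SFB-positive and 32.6 and 27.1 CPM in SFB-negative libraries, with replicates closer to each other than to the other group (log2 -1.35 ± 0.26, edgeR adjusted p = 4.08e-05). The Slc15a2 difference was not limited to cluster 0. T cells outside the table held 24.9 and 98.4 CPM in SFB-positive and 16.7 and 27.2 CPM in SFB-negative libraries, and an Slc15a2 UMI was found in 4.46% and 35.0% of cluster 0 cells and 3.66% and 34.4% of T cells in SFB-positive libraries, against 2.27% and 7.33% of cluster 0 cells and 2.24% and 8.47% of T cells in SFB-negative libraries. Free RNA and expression by T cells cannot be told apart there. For Slc15a3, T cells held 0 and 10.8 CPM in SFB-positive and 11.1 and 19.5 CPM in SFB-negative libraries.

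Ccnd2, cyclin D2, with which resting B cells enter the cell cycle, had 120 and 66.9 CPM in SFB-positive and 74.8 and 29.2 CPM in SFB-negative libraries (log2 0.95 ± 0.25, edgeR adjusted p = 0.0125). It was the only one of 15 tested early-activation genes past the limit, and its adjusted p was 0.147 with cells thinned to 1000 UMIs and 0.0539 with clusters 0 and 1 summed. T cells held more of it, at 539 and 213 CPM in SFB-positive and 638 and 171 CPM in SFB-negative libraries. Zeb2, a zinc-finger repressor needed for atypical, age-associated B cells in mice, had 60.1 and 149.6 CPM in SFB-positive and 33.0 and 80.0 CPM in SFB-negative libraries (log2 0.89 ± 0.26, edgeR adjusted p = 0.0369). Tbx21 and Itgax, the other genes by which atypical cells are known, lay at 0 and 0.979 CPM and 0 and 0.151 CPM in SFB-positive and at 0.350 and 0.409 CPM and 0 and 0 CPM in SFB-negative libraries. Jun and Zeb2 each passed the limit in 3 of 8 settings with the block, and without SFB-positive replicate 2 the log2 difference of Zeb2 was 0.09 (0.09 to 1.77 over the 4 libraries left out). Among other higher genes were Cfp, properdin of the alternative complement pathway (26.7 and 5.45 CPM in SFB-positive, 11.0 and 2.53 CPM in SFB-negative libraries, edgeR adjusted p = 0.0148), and Ext1, an enzyme of heparan sulphate synthesis (5.14 and 107 CPM in SFB-positive, 2.20 and 51.3 CPM in SFB-negative libraries, edgeR adjusted p = 0.0204). Both were picked for naming after their values were seen.

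**Figure D5:**
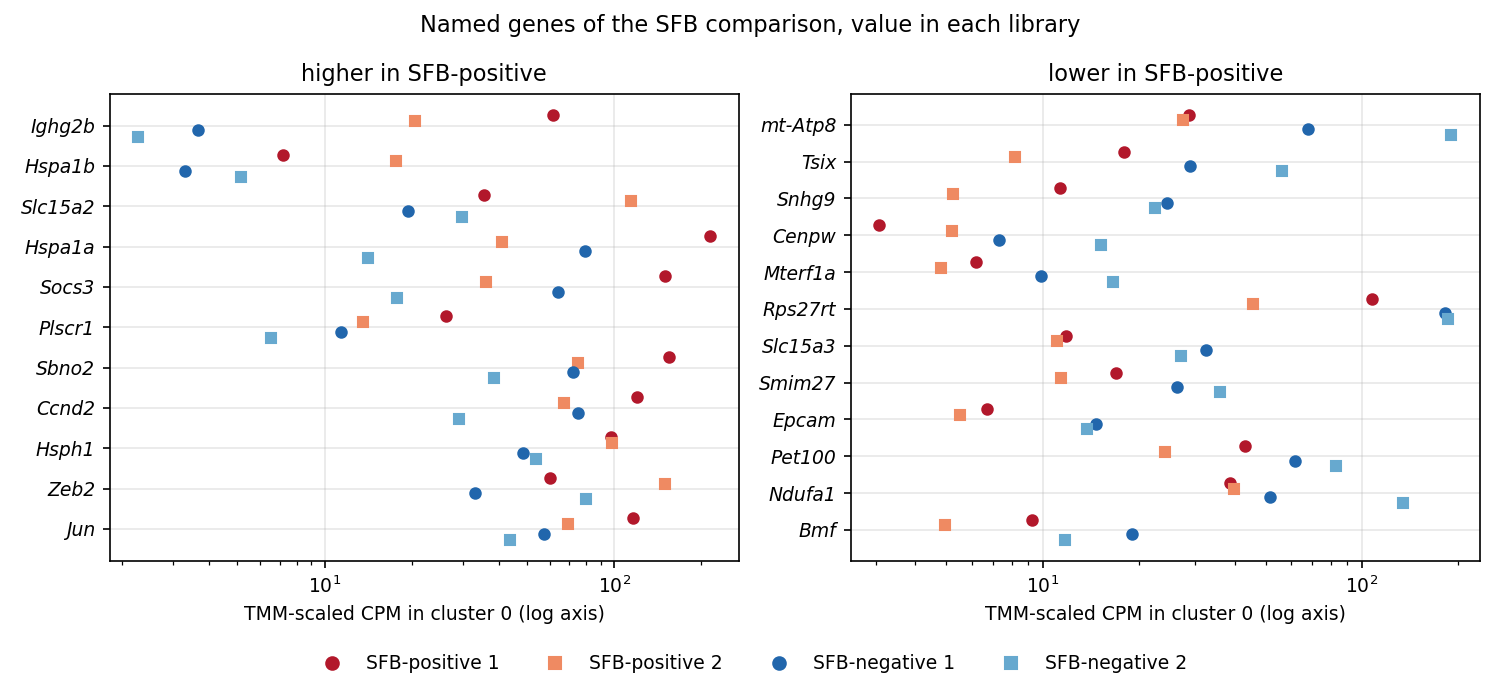
TMM-scaled CPM (log axis) in cluster 0 of the genes named in the comparison of SFB-positive with SFB-negative libraries, with 1 point for each library and genes ordered by the size of their log2 difference. For Hsph1 both SFB-positive points (97.7 and 98.4) lie right of both SFB-negative points (48.4 and 53.6), while for Socs3 the replicate 2 points (36.2 and 17.7) lie left of the replicate 1 points.

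Among the lower genes that kept their direction within both replicate numbers and without each library, 8 of the 12 with the largest difference were highest in SFB-negative replicate 2. The mitochondrially encoded ATP synthase subunit mt-Atp8 had 28.8 and 27.5 CPM in SFB-positive and 67.8 and 190.5 CPM in SFB-negative libraries (log2 -2.15 ± 0.28, edgeR adjusted p = 3.04e-11). Ndufa1, a complex I subunit, had 38.5 and 39.8 CPM in SFB-positive and 51.7 and 134 CPM in SFB-negative libraries (log2 -1.19 ± 0.27). It was the only one of 24 tested nuclear oxidative phosphorylation genes past the limit, and their median was -0.49, with -0.11 and -0.91 within replicate numbers 1 and 2. Of 13 tested mitochondrial transcripts 3 were lower, mt-Atp8 and the complex I subunits mt-Nd3 and mt-Nd6, and none higher, with a median of -0.10 (0.05 and -0.16 within replicate numbers 1 and 2). Pet100, an assembly factor of cytochrome c oxidase, and Mterf1a, a mitochondrial transcription terminator, were lower by log2 -1.22 and -1.49. Rps27rt, a near copy of the ribosomal gene Rps27 whose reads can be shared with it, was lower by -1.42, and with Rpl36a-ps1 it made 2 lower ones of 94 tested ribosomal protein genes (2.13%), a share near the 1.92% over all genes. Snhg9, a host of small nucleolar RNAs, Smim27, a small membrane protein, Cenpw of the centromere and Tsix, which overlaps Xist on the other strand so that their reads can be confused, were lower by -1.75, -1.29, -1.49 and -2.02. Of 36 tested clustered histone genes 19 were lower and none higher, with medians of 0.04 and -1.66 within replicate numbers 1 and 2. Of 919 tested gene models without a name, 86 were lower and 3 higher.

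Other lower genes were about as far apart within replicate number 1 as within number 2. Bmf, a BH3-only protein that promotes apoptosis, had 9.25 and 4.94 CPM in SFB-positive and 19.1 and 11.8 CPM in SFB-negative libraries (log2 -1.18 ± 0.30, edgeR adjusted p = 0.00745), the only one of 14 tested survival and apoptosis genes past the limit. Epcam, an adhesion molecule of epithelium, had 6.68 and 5.52 CPM in SFB-positive and 14.7 and 13.8 CPM in SFB-negative libraries (log2 -1.26 ± 0.31, edgeR adjusted p = 0.00388). Fabp2, the fatty acid carrier of enterocytes, had 0 UMIs in both SFB-positive and 11 and 37 UMIs in the SFB-negative libraries (edgeR adjusted p = 1.54e-07). An Epcam UMI was found in 0.878% and 3.08% of cluster 0 cells and 0.305% and 3.59% of T cells in SFB-positive libraries, and in 1.71% and 3.89% of cluster 0 cells and 3.53% and 3.09% of T cells in SFB-negative libraries. The shares were thus alike in replicate 2 and unlike in replicate 1. Cluster 4 held 16.4 and 10.6 CPM of Epcam, unscaled, in SFB-positive and 44.0 and 20.1 CPM in SFB-negative libraries, and cluster 3 held 2.93 to 7.27 CPM. Whether cluster 0 cells express Epcam was not tested. The part of epithelial RNA in these and other differences was not tested. Hk2, hexokinase 2, had 1.54 and 2.95 CPM in SFB-positive and 5.13 and 8.65 CPM in SFB-negative libraries (log2 -1.57 ± 0.40, edgeR adjusted p = 0.00707), the only one of 15 tested glycolysis genes past the limit.

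Further members of the lists passed the limit mainly through the replicate 2 libraries. Cd27, a co-stimulatory receptor of the TNF receptor family, had 34.9 and 4.75 CPM in SFB-positive and 54.6 and 14.4 CPM in SFB-negative libraries (log2 -1.13 ± 0.25), and its adjusted p was 0.185 with cells thinned to 1000 UMIs. A Cd27 UMI was found in 4.46% and 3.17% of cluster 0 cells and 37.8% and 65.9% of T cells in SFB-positive libraries, and in 6.12% and 4.26% of cluster 0 cells and 51.9% and 50.4% of T cells in SFB-negative libraries, and the part of free RNA in cluster 0 was not tested. Hes1, a Notch target, had 77.6 and 18.9 CPM in SFB-positive and 89.8 and 54.1 CPM in SFB-negative libraries (log2 -0.90 ± 0.26). Ifi27l2a and Ifit3 were the 2 lower ones of 17 tested type I interferon genes, none of which was higher, with log2 differences of -0.17 and -0.09 within replicate number 1 and of -1.77 and -2.73 within number 2. Cd3g and Il22, a T-cell gene and a lymphocyte cytokine gene, were lower at no more than 6.96 CPM in any library. The median of the type I interferon list was 0.25 within replicate number 1 and -0.64 within number 2, so the numbers did not share a direction.

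Genes that define the naive state did not pass the test in either direction. None of 18 naive follicular identity genes was called, and their median log2 difference was -0.00, against 0.236% higher and 1.92% lower calls over all genes. Ccr7 differed by -0.03 ± 0.36, Cd55 by -0.17 ± 0.27, Plaur by -0.07 ± 0.28 and Ighd by 0.09 ± 0.33 on the log2 scale (edgeR adjusted p of at least 0.918 for each). Fcer2a, at -0.59 ± 0.27 (edgeR adjusted p = 0.404), was lower within both replicate numbers, by 0.56 and 0.61. None of 22 B cell receptor genes, 15 quiescence genes, 15 NF-kB genes, 15 chemokine receptor and homing genes, 12 interferon-gamma genes, 10 Toll-like receptor genes and 19 ribosome biogenesis genes was called. The same held for 13 MHC class II presentation genes, with a median of -0.16 and 10 differences below 0 in both replicate numbers. At standard errors such as these, absence of a call does not show equal levels.

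With cells thinned to 1000 UMIs, adjusted p-values also missed the limit for Hspa1b (0.0711), Hsph1 (0.0791), Jun (0.169), Zeb2 (0.153), Bmf (0.118), Epcam (0.323), Hes1 (0.184) and Ifi27l2a (0.147), and stayed below it for Socs3 (0.0237), Plscr1 (0.00353), Slc15a2 (9.91e-05) and Slc15a3 (0.00769).

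The calls depend on the replicate block. Without it no gene passed in edgeR, with 7 genes at an unadjusted p under 0.05. DESeq2 with the block called 2 higher genes (Ighg2b and Hspa1a) and 3 lower genes (mt-Atp8, mt-Nd3 and Hist1h3e). Leaving out SFB-positive replicate 1, where only the fit without the block can be made, turned Socs3 to -0.17 and Hspa1a to -0.19, while the log2 difference of Sbno2 ranged from 0.44 to 1.59 and that of Slc15a3 from -1.44 to -1.23 over the 4 libraries left out.

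Whether the groups differed otherwise in cluster 0 than in another cluster was tested as the difference between the log2 differences, with the library as a block. Against cluster 1, 1 of 10720 genes passed (0.00933%), Airn, a non-coding RNA over Igf2r (309 genes had an unadjusted p under 0.05). No gene named above passed there. Sbno2, for example, had 184 and 115 CPM in cluster 1 of SFB-positive and 81.7 and 47.4 CPM in SFB-negative libraries, a difference that departed from that in cluster 0 by -0.09 ± 0.17 on the log2 scale. Socs3 stood at 186 and 65.3 CPM in cluster 1 of SFB-positive and at 75.8 and 20.9 CPM in SFB-negative libraries, above cluster 0 in each library. Its higher level in SFB-positive libraries of the same replicate number was thus not limited to cluster 0. In cluster 3 Socs3 stood at 30.6 and 7.90 CPM in SFB-positive and at 2.93 and 5.71 CPM in SFB-negative libraries, well below cluster 0. Against cluster 3, 5 of 10840 genes passed (0.0461%, with 226 at an unadjusted p under 0.05), none of them among the genes named above.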

How the data were processed

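Single-cell RNA was measured in 4 10x libraries, with SFB-positive and SFB-negative libraries numbered 1 and 2. The deposited matrices hold raw UMI counts per gene and barcode, with 15 antibody tags in the replicate 1 libraries. They were made with Cell Ranger 5.0.1 on mm10, per the submitters' processing notes, whereas version 6.0.0 stands in the file headers of replicate 1 and 7.0.0 in those of replicate 2. The authors' table gives for each kept cell its UMI count, gene count, percent of mitochondrial UMIs, a layout coordinate score (not used) and cluster number, with no account of the filters in the sources used here. Its UMI count equalled that of the matched barcode for 2222 of 3408 and 5622 of 7380 table cells in SFB-positive libraries. In SFB-negative libraries it did so for 2674 of 4050 and 6079 of 7731. Gene counts were equal for the same numbers of cells. Why the other cells differ was not tested.

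Member cells were summed for each library (2057274 and 13280641 UMIs in SFB-positive, 2856607 and 12222452 in SFB-negative libraries). Sums were tested in edgeR 4.0.16 (R 4.3.3) with filterByExpr, TMM factors and the robust quasi-likelihood test, with the replicate number as a block. The spread was estimated across all genes, since 4 libraries leave 1 residual degree of freedom for a gene. The number pairs the libraries through the Cell Ranger version in the headers, and deviations from the group means of same-numbered libraries correlated at 0.869 across genes. Differences between clusters were tested as an interaction with the library as a block. Whether the replicates are separate pools of mice is not clear from the labels, so p-values measure the spread between these libraries, which may be technical. Exact intervals are Clopper-Pearson at 95%, and they and the limits for 0 counts (3 counts) cover counting error only. No doublet caller was run. Scripts were tested on simulated data.

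Named genes were the 12 higher and 12 lower with the largest log2 difference among those past 0.05, with a mean of 10 CPM in the group where they are higher and alike in direction within both numbers and without each library (9 higher ones qualified), and list members past 0.05. Clustered histone genes and gene models without a name are given as counts. Members, markers and gene lists were chosen with earlier results of these data known. Alternatives were RLE factors, no filter, cells thinned to 1000 UMIs, cells of at most 2900 genes, cells without markers of other types, no block, each library left out, DESeq2 1.42.0 with the block and, chosen after the data had been examined, clusters 0 and 1 summed and genes at 5 CPM in a replicate 1 library. Python 3.11.15, numpy 2.4.6, pandas 2.3.3 and scipy 1.17.1 were used. Results on some genes are not reported here.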

Additional observations from a re-analysis of the deposited data

Results flagged for a closer look

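Genes whose difference between SFB-positive and SFB-negative libraries in cluster 0 departed from that in another cluster were few, and most rested on low counts. Values are CPM without further scaling, and each departure is the log2 difference in cluster 0 minus that in the other cluster (edgeR, adjusted over all genes tested).

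Airn, a non-coding RNA over Igf2r, departed from cluster 1 by 2.09 ± 0.41 (adjusted p = 0.0235) and was seen in replicate 2 libraries alone, with 12.9 CPM in SFB-positive and 4.25 CPM in SFB-negative in cluster 0, and 6.96 and 10.8 CPM in cluster 1. Tanc2, a synaptic scaffold gene, departed from cluster 3 by 3.36 ± 0.47 (adjusted p = 1.48e-06), with 1.94 and 14.8 CPM in SFB-positive and 0.700 and 6.63 CPM in SFB-negative libraries in cluster 0, against 1.06 and 13.8 CPM and 10.3 and 55.9 CPM in cluster 3. The histone gene Hist1h3c departed from cluster 3 by -5.22 ± 0.73 (adjusted p = 1.48e-06), with 0 and 0.151 CPM in SFB-positive and 0 and 10.4 CPM in SFB-negative libraries in cluster 0, so that in cluster 0 it was seen nearly only in the library rich in histone transcripts. Reg3b, an epithelial antimicrobial lectin, departed by -6.88 ± 1.46 (adjusted p = 0.0275), with 29.6 CPM in cluster 3 of SFB-positive replicate 1 and at most 2.80 CPM in cluster 0 of any library. Ryr2, a calcium release channel, departed by 3.70 ± 0.80 (adjusted p = 0.0290), with at most 10.8 CPM in cluster 0 and 6.75 CPM in cluster 3. Fitted departures of genes at 0 in a library depend on the prior count and are no bounds.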

How the results depend on the processing

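Without the replicate block 0 genes were higher and 0 lower (7 at an unadjusted p under 0.05), against 25 and 204 with it. Higher and lower genes numbered 7 and 50 with cells thinned to 1000 UMIs, 12 and 102 with clusters 0 and 1 summed, 15 and 64 among genes at 5 CPM in a replicate 1 library, and 2 and 3 in DESeq2. With RLE factors (33 and 162), no filter (21 and 178), cells of at most 2900 genes (28 and 168) and cells without other types' markers (23 and 173) the counts were within 1.5 times. Leaving out 1 library, which also drops the block, gave 0 to 0 higher and 0 to 3 lower. The number of genes that departed from cluster 1 was 0 thinned, 0 at most 2900 genes, and 0 to 9 without 1 library. From cluster 3 it was 3 with RLE factors, 1 thinned, 0 at most 2900 genes, and 1 to 23 without 1 library, where Hist1h3c ran from -5.36 to 3.28 and Ryr2 from -1.65 to 4.78. The Ighg2b share differed by 1.09 percentage points thinned and by 0.13 among cells by their leading constant gene. Without 1 library, log2 differences ran from -0.19 to 3.18 (Hspa1a), -0.17 to 2.40 (Socs3), -2.85 to 0.44 (Cd27), -1.86 to 0.0208 (Ifi27l2a), -1.93 to 0.12 (Hes1), -0.98 to 1.06 (Ccr7), -0.71 to 0.65 (Plaur), -0.56 to 0.81 (Ighd), -1.06 to 1.65 (Ighm) and -1.10 to 2.38 (Igha). With all 4 libraries Ccr7 turned from -0.03 to 0.0267 with RLE factors, 0.0271 thinned, 0.0269 in DESeq2, 0.0028 with no filter, 0.0024 at most 2900 genes and 0.0541 with clusters summed. The causes were not tested. Genes with too few UMIs under a setting have no value there. The shallow replicate 1 libraries limit what can be seen of genes of low level.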

Other observations

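In SFB-negative replicate 1, cluster 0 held 84 UMIs of Mcpt1, a protease of mucosal mast cells, and 80 of them lay in 1 cell. The other 3 libraries held 0 in cluster 0. Mcpt1 was the single lower gene in the fit without SFB-negative replicate 2, so that call rests on 1 cell.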
